A study of Mus musculus with 6 samples.

Results

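The annexin genes described here are the 10 rows of a mouse gastric RNA-seq count table whose symbols are Anxa1, Anxa2, Anxa3, Anxa4, Anxa5, Anxa6, Anxa7, Anxa8, Anxa10 and Anxa11, out of 21526 gene symbols. They were taken by symbol alone, and all 10 passed the filter on low counts that left 14600 genes for testing. RNA came from epithelium of the gastric corpus, the acid-secreting part of the stomach, released with EDTA and not cultured. There were 3 libraries from normal stomach of wild-type mice (Normal) and 3 from Yap-activated gastric cancer of mice with the genotype CluCreERT2;R26rtTA;HA-Yap+ (Yap-activated). By the labels' protocols, mice of either group were injected with 2 mg tamoxifen daily for 5 days, which activates CreERT2, a Cre recombinase here carried at the Clu gene, and both ate doxycycline food until the end point, for 14 days, which activates rtTA, a transcriptional activator at the Rosa26 locus. Only the Yap-activated mice carried these alleles and the tagged Yap transgene, so effects of CreERT2, rtTA and Yap cannot be told apart. The sources used here give neither ages nor whether each library is a separate mouse. The p-values therefore cover the differences among these 6 libraries, which may be technical.

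Annexins are cytosolic proteins that bind negatively charged phospholipids when calcium rises, through a conserved core of repeats, while their N-terminal tails differ and carry most of their partner contacts. They act in vesicle traffic, in sealing damaged plasma membrane and in linking membrane to actin. Several are bound by small calcium-binding S100 proteins, Anxa2 by S100a10 and Anxa1 by S100a11. Anxa10 is known in the stomach as a gene of gastric epithelium, and its calcium sites are atypical for the family.

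Library totals ran from 25580734 to 48440033 counts. Yap1, the gene of Yap, was at 100.3, 104.5 and 106 CPM in Normal and at 3085, 1468 and 1651 CPM in Yap-activated libraries. Here CPM is a gene's reads scaled to a common library total after TMM normalization. Reads of the tagged transgene and of the mouse's own Yap1 cannot be told apart in these counts. Marker genes of parietal and chief cells were present in Normal and nearly gone in Yap-activated tissue. There the summed level of 3 parietal cell genes was 24.6 to 33.4 CPM against 21240 to 28870 CPM in Normal. For 3 chief cell genes it was 152 to 186 CPM against 87910 to 137600 CPM. The measurement covers the whole mixture of cells, so fewer cells of a type and less RNA per cell cannot be told apart.

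Of the 10 genes 3, Anxa7, Anxa11 and Anxa8, lie on chromosome 14, with gaps of 5.36 and 8.20 Mb between them, and each of the others is alone on its chromosome. Promoter sequences from RefSeq (GRCm38.p6) were found for 8 of the 10 genes, all but Anxa3 and Anxa6. A promoter window here is 300 bases long, with 250 before and 50 after the gene's start. The stretches shown are those of Anxa8, which rose most, of Anxa2, which became the most abundant of the risers, and of Anxa10, which stayed abundant in both groups, with a short window for Anxa1. They were searched on both strands for CATTCC, the core of the site bound by TEAD factors, the DNA-binding partners of Yap, and for TGANTCA, the core of the site bound by AP-1. Matches are in capitals, the remaining bases in lower case, each written 5′ to 3′ on the gene's strand.
Anxa8, chr14:34085729-34085978, plus strand: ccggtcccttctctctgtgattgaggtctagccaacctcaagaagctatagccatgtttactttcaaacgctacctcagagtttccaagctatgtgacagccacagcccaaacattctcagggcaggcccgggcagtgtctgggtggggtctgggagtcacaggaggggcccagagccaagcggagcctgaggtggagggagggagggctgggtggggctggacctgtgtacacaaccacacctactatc
Anxa2, chr9:69453433-69453619, plus strand: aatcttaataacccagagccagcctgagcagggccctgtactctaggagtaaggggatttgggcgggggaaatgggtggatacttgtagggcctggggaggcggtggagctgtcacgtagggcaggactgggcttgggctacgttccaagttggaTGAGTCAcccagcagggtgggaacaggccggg
Anxa10, chr8:62123194-62123443, minus strand: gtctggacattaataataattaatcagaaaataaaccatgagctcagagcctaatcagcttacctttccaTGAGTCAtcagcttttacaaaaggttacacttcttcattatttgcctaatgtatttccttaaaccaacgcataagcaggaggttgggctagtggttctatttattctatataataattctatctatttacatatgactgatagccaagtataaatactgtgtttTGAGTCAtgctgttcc
Anxa1, chr19:20390892-20390917, minus strand: tgcactgaacCATTCCtgtgaggaat

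CATTCC was found in the window of 1 of the 8 genes, Anxa1, 236 bases before its RefSeq start, where 14.7% of all 32851 windows held it. The bases before the RefSeq start of Anxa1 lie in an exon of a longer transcript in the GENCODE annotation. TGANTCA was found for 2 of the 8, Anxa2 at 95 bases and Anxa10 at 180 and 16 bases before the start, where 7.81% of all windows held it. The windows of Anxa4, Anxa5, Anxa7, Anxa8 and Anxa11 held neither. A gene that rose (Anxa2) and a gene that did not pass the test (Anxa10) therefore shared the same AP-1 letters, TGAGTCA. These are matches of letters, and no binding was measured here.

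Of the 10 annexin genes 6 rose in Yap-activated tissue, 1 fell and 3 did not pass the test, at an adjusted p of 0.05 by edgeR's quasi-likelihood test with Benjamini-Hochberg adjustment over all genes. Over all 14600 genes tested, 29.8% were called higher and 29.7% lower, 59.5% in all. The 6 that rose did so by over 2-fold, a size reached upward by 16.9% of all genes. The groups did not overlap at 8 of the 10 genes, 7 with Yap-activated above and 1 below, against 33.2% above and 34.4% below, 67.6% in all, over all genes. The median log2 fold change was 1.52 over the 10 genes and 0.01 over all genes tested. As a share of each library's total, annexin reads were 0.171% to 0.200% of all reads in Normal and 0.652% to 0.842% in Yap-activated libraries. Such a share scales by library totals alone, under which the median log2 fold change of all genes was 0.505. With TMM the summed level of the 10 genes was 1989 to 2303 CPM in Normal and 5375 to 7296 CPM in Yap-activated libraries. The mitochondrial share of reads moved the other way, at 15.1% to 27.6% in Normal against 7.49% to 13.8% in the Yap-activated group. All 5 endothelial markers and 3 of 6 fibroblast markers were called lower, with summed levels of 151 to 161 against 26.6 to 49.1 CPM and of 796 to 1198 against 369 to 614 CPM, and none was at 0 in all libraries. The part of these differences in the annexin values was not tested.

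**Figure D1:**
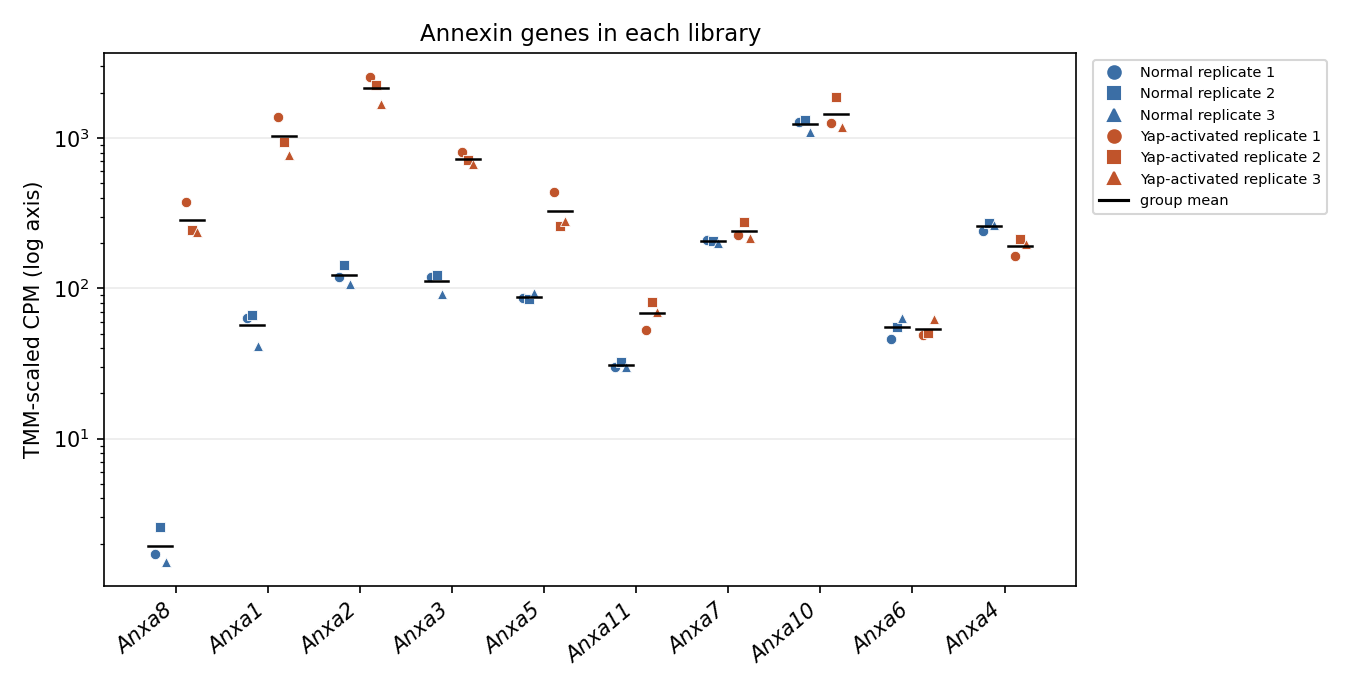
TMM-scaled CPM (log axis) of the 10 annexin genes in each of the 3 Normal and 3 Yap-activated libraries, ordered from the highest to the lowest log2 fold change; symbols are replicates and black lines group means. Anxa8 goes from 1.52 to 2.59 CPM in Normal to 236 to 373 CPM in Yap-activated libraries, while the points of Anxa10 and Anxa6 overlap between the groups.

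Anxa8, an annexin of stratified and other barrier epithelia, changed most. It was at 1.72, 2.59 and 1.52 CPM in the Normal libraries, from 48 to 109 reads, and at 373, 244 and 236 CPM in the Yap-activated ones. Every Yap-activated library was far above every Normal one. This is a log2 fold change of 7.18 (SE 0.31, adjusted p = 2.69e-06), or 144.5-fold, the 52nd highest rise of the 14600 genes. Anxa8 lies on the plus strand of chromosome 14 from 34085981 to 34100571 (GRCm38).

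Anxa8 is also known from squamous epithelium, which in the mouse lines the forestomach, and squamous marker genes differed between libraries too. The summed level of 9 squamous genes was 1.04 to 40.8 CPM in Normal and 56.8 to 87.3 CPM in Yap-activated libraries. Only 1 of the 9, Ivl, was called higher, against 29.8% of all genes. Ivl was at 0.146, 0.0238 and 0.0316 CPM in Normal and at 10.8, 13.5 and 9.17 CPM in Yap-activated libraries. It rose by 7.35 on the log2 scale (SE 0.49), near the 7.18 of Anxa8. At 5 of the 9 every Yap-activated library was above every Normal one, against 33.2% of all genes. The median log2 fold change of the list was 1.87, and none of the 9 was at 0 in all libraries. The part of squamous cells in the Anxa8 values was not tested. In Normal replicate 2 the squamous sum was 40.8 CPM, with Krt13 at 16.7 and Ivl at 0.0238 CPM, and Anxa8 was at 2.59 CPM. In Yap-activated replicate 3 the sum was 56.8 CPM, with Krt13 at 23.8 and Ivl at 9.17 CPM, and Anxa8 was at 236 CPM. Without Normal replicate 2 its log2 fold change was 7.45, and with each library left out in turn it ran from 6.94 to 7.45.

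Anxa1, a mediator of the anti-inflammatory action of glucocorticoids and a ligand of formyl peptide receptors, was at 63.2, 66.5 and 41.3 CPM in Normal. In Yap-activated libraries it was at 1389, 939 and 777 CPM, with no overlap. The rise was 18.2-fold, or 4.18 on the log2 scale (SE 0.30, adjusted p = 2.03e-05). Anxa1 is on chromosome 19, minus strand, from 20373428 to 20390944.

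Anxa2, which with S100a10 holds plasminogen and its activator at the cell surface, moved by nearly the same amount. Its Normal libraries were at 119.8, 142.2 and 107.6 CPM and its Yap-activated libraries at 2540, 2264 and 1683 CPM. The rise was 17.5-fold, or 4.13 on the log2 scale (SE 0.22, adjusted p = 5.03e-06), and the groups did not overlap. Anxa2 lies on the plus strand of chromosome 9 from 69453620 to 69491795.

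Anxa3, abundant in neutrophils as well as in some epithelia, was at 118.9, 123.5 and 91.4 CPM in Normal and at 802, 714 and 671 CPM in Yap-activated libraries. Relative to their mean, its 3 Yap-activated libraries lay closer together than those of the other risers, and the groups did not overlap. Anxa3 rose by 2.71 on the log2 scale (SE 0.16, adjusted p = 8.14e-06). Anxa3 lies on chromosome 5 from 96793339 to 96845966.

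Anxa5, the phosphatidylserine-binding protein used as a stain for dying cells, was at 86.2, 85.4 and 92.6 CPM in Normal and 439, 261 and 281 CPM in Yap-activated libraries. Yap-activated replicate 1 stood above the other two, and all 3 were above Normal. Anxa5 rose by 1.89 on the log2 scale (SE 0.20, adjusted p = 1.44e-04). Anxa5 lies on chromosome 3 from 36448923 to 36475894.

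Anxa11, whose long proline-rich tail binds S100a6 and the calcium sensor Pdcd6, had the smallest rise. It was at 30.2, 32.6 and 30.1 CPM in Normal and at 52.7, 81.7 and 69.8 CPM in Yap-activated libraries, again with no overlap. The log2 fold change was 1.14 (SE 0.16, adjusted p = 5.27e-04). It lies on chromosome 14 from 25842156 to 25886804, and 113 bases of its exons are shared with the antisense gene Anxa11os. The strand setting of the counting is not given, so reads of the 2 genes cannot be told apart over those bases. The same holds for 98 bases of Anxa2 and 75 bases of Anxa4 under genes on the opposite strand, and for 112 bases of Anxa3 shared with a gene on the same strand.

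Among the 6 risers, 5 (Anxa1, Anxa2, Anxa3, Anxa5 and Anxa8) were highest in Yap-activated replicate 1, and Anxa11 was highest in Yap-activated replicate 2. How many of all genes called higher were highest in replicate 1 was not counted, so this may not be particular to annexins. Yap1 was also highest in replicate 1, as was the summed level of 10 myeloid genes, at 827 CPM against 155 and 649 CPM. Of that sum S100a8 and S100a9 gave 218.5 and 274.1 CPM in replicate 1, where Itgam and Ly6g were also highest. Ptprc, Lyz2, Csf1r, Adgre1, Cd68 and Csf3r were instead highest in replicate 3. The myeloid sum was 121.7 to 129.9 CPM in Normal. Of its 9 tested genes 7 were called higher, against 29.8% of all genes, and none of the 10 was at 0 in all libraries. In Yap-activated replicates 1 to 3, Anxa1 was at 1389, 939 and 777 CPM and Anxa3 at 802, 714 and 671 CPM. The part of myeloid cells in the annexin values was not tested. Without Yap-activated replicate 1, the 6 genes still rose.

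Anxa4, an annexin of secretory and absorptive epithelia, was the gene that fell. It was at 239, 273 and 265 CPM in Normal and 163, 212 and 197 CPM in Yap-activated libraries, so the groups did not overlap. The log2 fold change was -0.44 (SE 0.13, adjusted p = 0.0204). It no longer passed when Normal replicate 2 (adjusted p = 0.0753), Normal replicate 3 (adjusted p = 0.0609) or Yap-activated replicate 1 (adjusted p = 0.0521) was left out, and with library totals in place of TMM the value was 0.05. Anxa4 lies on chromosome 6 from 86736840 to 86793584.

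Anxa10, per length the highest annexin in Normal, did not pass the test. Its Normal libraries were at 1284, 1314 and 1097 CPM and its Yap-activated libraries at 1261, 1865 and 1181 CPM, and the 2 ranges overlap. The log2 fold change was 0.22 (SE 0.21, adjusted p = 0.382), and it was -0.02 without Yap-activated replicate 2, the highest library. With library totals alone, a scaling that moved the median of all genes from 0.01 to 0.505, it was 0.715 and passed (adjusted p = 0.0162). Anxa10 is on chromosome 8, minus strand, from 62057042 to 62123150.

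Pit cells, the mucous cells of the gastric surface, are marked by Muc5ac, Gkn1, Gkn2 and Tff1. All 4 were called lower, against 29.7% of all genes tested. Their summed level was 42990 to 50220 CPM in Normal and 1377 to 2113 CPM in Yap-activated libraries. Counted against Anxa10 within each library, which needs no scaling, there were 15.2, 15.6 and 16.2 Gkn1 reads per Anxa10 read in Normal and 0.397, 0.390 and 0.381 in Yap-activated libraries. For Muc5ac the ratio went from 5.26 to 5.71 in Normal down to 0.0187 to 0.0941, and for Tff1 from 0.985 to 1.12 down to 0.259 to 0.337. Anxa10 thus stood near its Normal level in tissue where these 4 genes were lower.

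**Figure D2:**
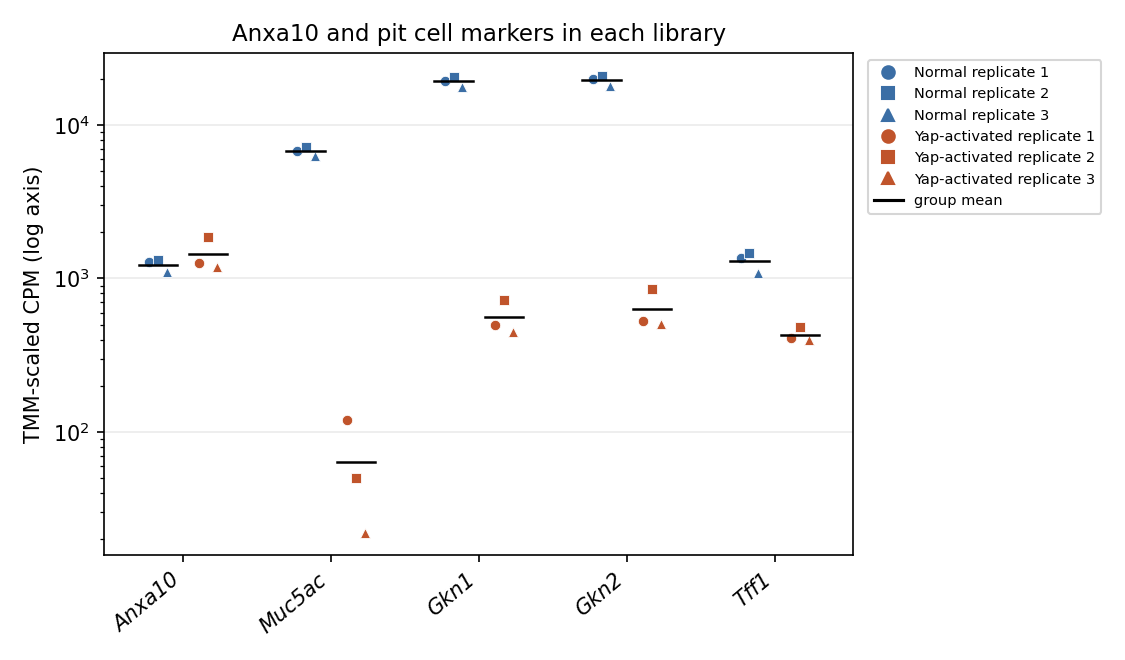
TMM-scaled CPM (log axis) of Anxa10 and of 4 pit cell marker genes in each library; symbols are replicates and black lines group means. The Normal and Yap-activated points of Anxa10 overlap, while those of Muc5ac, Gkn1, Gkn2 and Tff1 are apart in all libraries.

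Anxa7, also called synexin for its part in membrane fusion, was at 210, 207 and 200 CPM in Normal and at 227, 277 and 217 CPM in Yap-activated libraries. The groups did not overlap, but the log2 fold change of 0.22 (SE 0.12) did not pass (adjusted p = 0.155). With library totals alone it was 0.718 and passed (adjusted p = 0.00177). Anxa7 lies on chromosome 14 from 20455260 to 20480133.

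Anxa6, which has a doubled core and acts in endosome and cholesterol traffic, was at 46.3, 55.5 and 63.4 CPM in Normal and at 49.2, 50.4 and 62.1 CPM in Yap-activated libraries. These ranges overlap almost fully. The value was -0.03 on the log2 scale (SE 0.15, adjusted p = 0.87), and its sign changed with upper-quartile scaling (0.02) and with library totals alone (0.46, adjusted p = 0.041). Anxa6 lies on chromosome 11 from 54979108 to 55033445.

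Of the annexin genes outside the 10, Anxa9 was at 1.46, 0.879 and 0.727 CPM in Normal and at 2.75, 2.39 and 3.61 CPM in Yap-activated libraries. It rose by 1.51 on the log2 scale (SE 0.35, adjusted p = 0.00694), from 23 to 50 reads per library in Normal. Its exons share 71 bases with Mindy1 on the opposite strand and 94 bases with another annotated gene on the same strand, whose reads no strand setting would separate. Anxa13 was not analysed here.

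Levels of different genes were compared as TMM-scaled CPM per kb of exon, the union of a gene's annotated exons. Summed over the 10 genes this level was 719 to 838 in Normal and 1818 to 2476 in Yap-activated libraries. Anxa10 made up 68.2 ± 1.49% of the sum in Normal against 28.4 ± 6.24% in the Yap-activated group (SD, n = 3). Anxa2 went from 4.18 ± 0.318% to 26.1 ± 1.35% and Anxa1 from 2.46 ± 0.426% to 15.9 ± 2.95% of the sum. Anxa8 went from 0.130 ± 0.0298% to 6.81 ± 1.25% (SD, n = 3).

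In Normal the order of these levels was Anxa10 at 537 ± 51.3 CPM per kb, Anxa4 at 55.8 ± 3.83, Anxa5 at 49.6 ± 2.22, Anxa7, Anxa2, Anxa3, Anxa1, Anxa6, Anxa11 at 7.48 ± 0.340 and Anxa8 at 1.03 ± 0.303 (SD, n = 3). Anxa10 was apart from all others. The ranges of Anxa4 and Anxa5, of Anxa7 and Anxa2, of Anxa2 and Anxa3, and of Anxa1 and Anxa6 overlapped, so these neighbours did not differ beyond their spread. In Yap-activated tissue Anxa10 was at 626 ± 163 CPM per kb, Anxa2 at 580 ± 117 and Anxa1 at 356 ± 109, followed by Anxa3, Anxa5, Anxa8, Anxa4, Anxa7, Anxa6 and Anxa11 (SD, n = 3). There the ranges of Anxa10 and Anxa2, Anxa2 and Anxa1, Anxa3 and Anxa5, Anxa5 and Anxa8, Anxa4 and Anxa7, and Anxa6 and Anxa11 overlapped. Anxa8 moved from the 10th to the 6th place. With the longest transcript as the length, Anxa2 came before Anxa10 in Yap-activated tissue, at 948 against 814 CPM per kb.

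**Figure D3:**
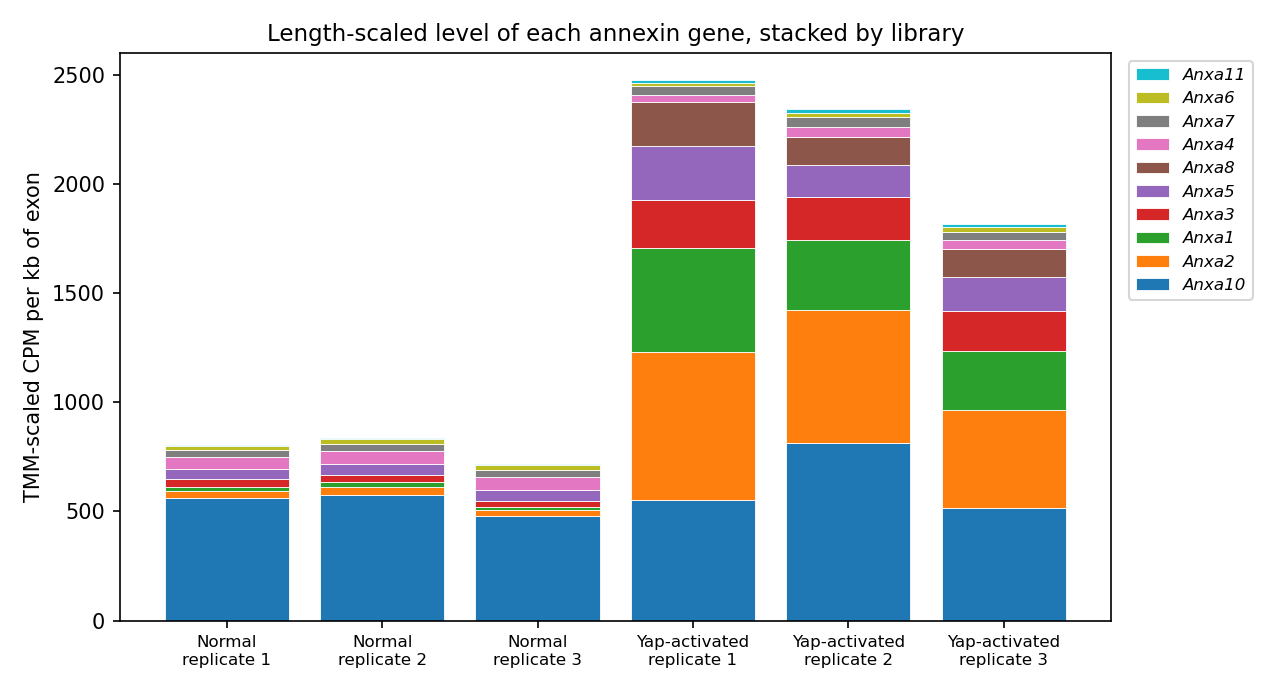
Stacked bars of the TMM-scaled CPM per kb of exon of the 10 annexin genes in each of the 6 libraries. Anxa10 fills most of each Normal bar, and Anxa2, Anxa1, Anxa3, Anxa5 and Anxa8 make up most of the added height in the Yap-activated bars.

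The ratio of 2 annexins within a library does not depend on scaling. There were 0.0933, 0.108 and 0.0980 Anxa2 reads per Anxa10 read in the Normal libraries and 2.01, 1.21 and 1.43 in the Yap-activated ones. For Anxa5 per Anxa4 read the values were 0.361, 0.313 and 0.350 in Normal and 2.70, 1.23 and 1.43 in Yap-activated libraries. Neither of these ratios overlapped between the groups. The ratio of Anxa6 to Anxa7 reads was 0.220 to 0.318 in Normal and 0.182 to 0.286 in Yap-activated libraries, and these ranges overlap.

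The genes nearest in pattern were found by the root mean square difference of log2 CPM over the 6 libraries, with each gene centred on its own mean. For Anxa1 the nearest gene was Anxa2 itself (0.18), followed by Vtcn1 (0.20), an immune checkpoint ligand. The genes nearest to Anxa2 were Mall, a raft-associated membrane protein gene (0.14), and Vtcn1 (0.17). For Anxa8 they were Wfdc18 (0.14), a small secreted protein gene, and Tnip3 (0.19). Nearest to Anxa3 were Ier5 and Col9a3, both at 0.10, and to Anxa5 Acot7 and Amotl2, both at 0.09. Nectin2 (0.06) and Trim27 (0.07) were nearest to Anxa11. For the gene that fell, Anxa4, they were Tspan1 (0.03) and Rcor1 (0.04). Those nearest to Anxa10 were Commd7 (0.03) and Plekhh3 (0.08), to Anxa7 Dnmt1 (0.02) and Gng5 (0.03), and to Anxa6 Wdfy3 (0.05) and Ostm1 (0.07).

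The S100 genes whose proteins bind annexins rose with them, 3 of the 3 tested of 4 listed, where 29.8% of all genes were called higher. S100a10, the partner of Anxa2, was at 30.4, 24.1 and 14.8 CPM in Normal and 1030, 426 and 390 CPM in Yap-activated libraries, a log2 fold change of 4.73 (SE 0.50, adjusted p = 2.43e-04). S100a11 rose by 2.74 on the log2 scale (SE 0.19) and S100a6 by 2.68 (SE 0.23), while S100a4, at 0 to 0.237 CPM, had too few reads to be tested. Yap-activated replicate 1 was highest for S100a10, as it was for Anxa2. Within libraries there were 3.94 to 7.29 Anxa2 reads per S100a10 read in Normal and 2.47 to 5.32 in Yap-activated ones, ranges that overlap.

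Plasminogen, the precursor of the protease plasmin, is activated at the cell surface where Anxa2 and S100a10 hold it. Of 8 listed genes of this system 7 were tested, and 4 rose, 2 fell and 1, Serpinb2, did not pass. Among all genes tested 29.8% were called higher and 29.7% lower. Plaur, the urokinase receptor gene, was at 25.3, 23.0 and 17.2 CPM in Normal and 661, 419 and 418 CPM in Yap-activated libraries (log2 fold change 4.52, SE 0.26, adjusted p = 7.15e-06). Plat, the tissue activator gene, rose by 6.85 on the log2 scale (SE 0.72) and Plau, the urokinase gene, by 2.63 (SE 0.31). The genes that fell, named after their values were seen, were Plgrkt, a plasminogen receptor gene, at -0.99 and Serpinf2, the antiplasmin gene, at -1.97. With library totals alone Plgrkt was at -0.49 and no longer passed (adjusted p = 0.0513). Without Yap-activated replicate 1 the value of Plat was 6.001. Plg itself, at 0 to 1.46 CPM, was not tested.

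**Figure D4:**
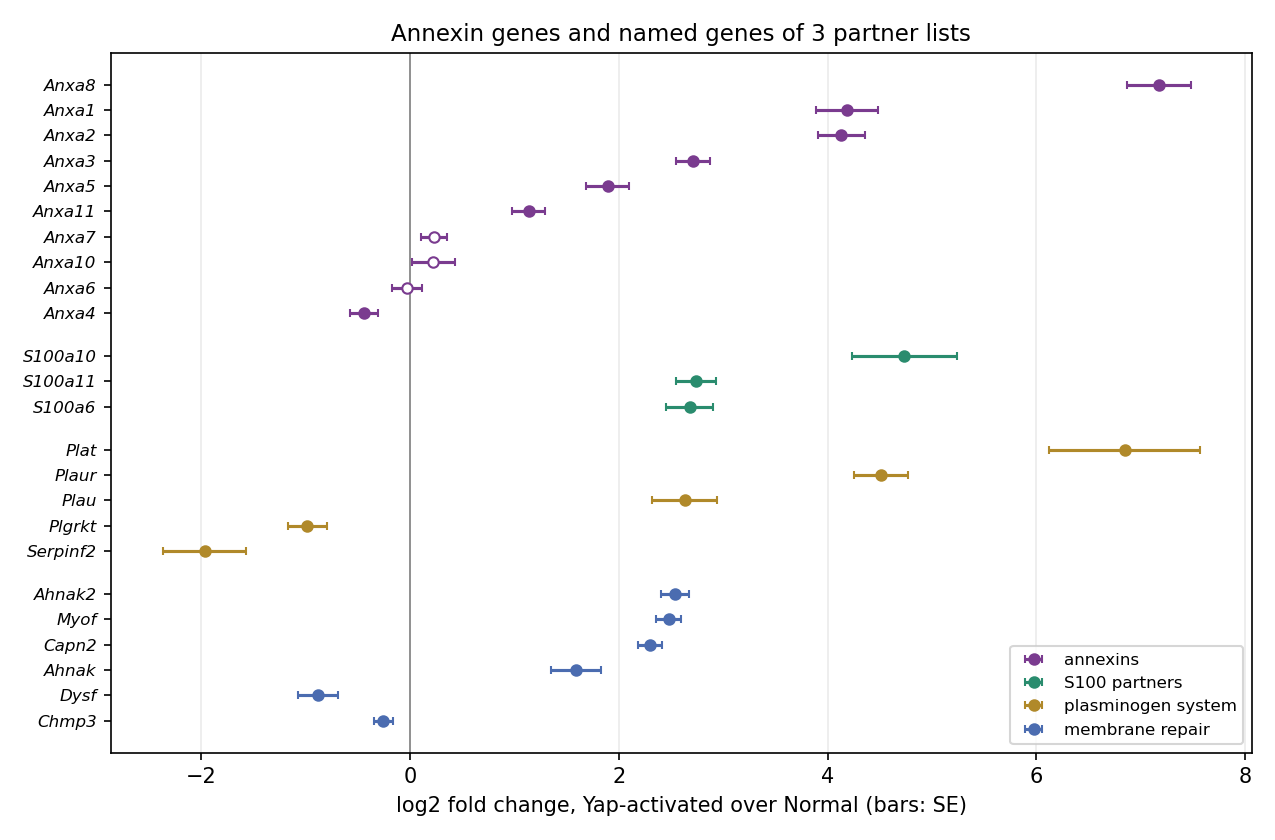
Log2 fold changes (Yap-activated over Normal, bars are SE) of the 10 annexin genes and of named genes from the S100, plasminogen and membrane repair lists; filled points passed an adjusted p of 0.05. Anxa8 at 7.18 is the highest annexin, and the open points are Anxa7, Anxa10 and Anxa6.

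Annexins gather at plasma membrane wounds together with ferlins, calpains and Ahnak proteins. Of 12 listed genes of plasma membrane repair 7 rose, 2 fell and 3 (Capn1, Capns1 and Trim72) did not pass. Over all genes tested 29.8% were called higher and 29.7% lower. Myof, the myoferlin gene, was at 59.9, 68.6 and 58.5 CPM in Normal and 333, 364 and 344 CPM in Yap-activated libraries (log2 fold change 2.48, SE 0.12, adjusted p = 2.98e-06). The calcium-activated protease gene Capn2 rose by 2.30, Ahnak2 by 2.54 and Ahnak, whose protein binds the complex of Anxa2 and S100a10, by 1.59. The 2 that fell, named after their values were seen, were Dysf, the dysferlin gene, at -0.88 and Chmp3, an ESCRT subunit gene, at -0.26. With library totals alone neither was called, and Chmp3 was at 0.23. The Chmp3 call was also lost without any one of the 6 libraries (adjusted p from 0.0513 to 0.135).

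Formyl peptide receptors are the surface receptors of Anxa1. Fpr2 was at 0.291, 0.356 and 0.443 CPM in Normal and at 5.97, 0.406 and 2.62 CPM in Yap-activated libraries, and Fpr1 at 0.408 to 0.594 and 0.334 to 6.20 CPM. Both groups overlap at each gene. Fpr2 passed at 3.03 on the log2 scale (SE 0.88, adjusted p = 0.021), a call lost without any one Normal library (adjusted p from 0.0648 to 0.0745) and by voom (2.26, adjusted p = 0.142). Without Yap-activated replicate 1 the value of Fpr2 was 2.07. Fpr1, at 2.38, did not pass (adjusted p = 0.0631), but did by DESeq2 (adjusted p = 0.0087), with library totals alone (adjusted p = 0.0295) and without Yap-activated replicate 2 (adjusted p = 0.0042). Without Yap-activated replicate 1 Fpr1 was at 0.955. Yap-activated replicates 1 and 3, which hold most of these reads, also had the higher myeloid sums of 827 and 649 CPM, whose part was not tested. No reads of Fpr3 were counted. Pla2g4a, the gene of the cytosolic phospholipase A2 that Anxa1 is known to inhibit, fell from 46.6 ± 4.37 to 21.6 ± 1.97 CPM (SD, n = 3; log2 fold change -1.11, adjusted p = 1.32e-04).

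Phosphatidylserine is the lipid that Anxa5 binds once it reaches the outer leaflet. Of 14 genes of its exposure, flipping and recognition 4 rose, 4 fell and 6 did not pass, with a median log2 fold change of 0.03. These counts are near the shares over all genes tested, 29.8% called higher and 29.7% lower. Plscr1, a scramblase gene, rose from 20.7 ± 4.10 to 117.3 ± 8.46 CPM (SD, n = 3). Gas6, the bridge from phosphatidylserine to the TAM receptors, fell from 866 ± 39.0 to 33.1 ± 9.19 CPM (log2 fold change -4.71, SE 0.23, adjusted p = 3.16e-06). Tyro3, one of those receptors, was at -1.14 (adjusted p = 1.83e-04). The remaining TAM receptor genes, Axl at 0.74 (adjusted p = 0.128) and Mertk at 0.57 (adjusted p = 0.322), did not pass. Both were highest in Yap-activated replicate 3. Named after their values were seen, the flippase gene Atp8b1 fell by 1.15 on the log2 scale, and the flippase genes Atp11a and Atp8a1 and the scramblase gene Ano6 were called higher at 0.54, 0.37 and 0.28. The calls of Ano6 and Atp8a1 were each lost in 5 of the 6 fits that left out 1 library.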

How the data were processed

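Per the labels, poly(A) RNA was sequenced as paired 50-base reads from stranded libraries. The authors deposited a table of raw read counts, 1 row per gene symbol and 1 column per library. STAR 2.4.2a, DESeq2, GRCm38 and mm10 are named, per the submitters' processing notes. The sources used here do not give how reads were counted, the strand setting, or how reads matching several places were handled.

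Counts were tested in R 4.3.3 with edgeR 4.0.16: filterByExpr (minimum count 10), TMM scaling, and a robust quasi-likelihood F-test between the groups, with Benjamini-Hochberg adjustment over the 14600 genes tested and a threshold of 0.05. SE was taken as the size of the log2 fold change over the root of F. The test was checked on simulated data in which few genes changed, so that check does not cover the choice of scaling. Coordinates and exon lengths are from GENCODE mouse release 21 (GRCm38), promoters from RefSeq. Library totals were 25580734 to 48440033 counts, and the members had at least 48 reads in every library.

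The members and lists were chosen with earlier results of these data known. All 10 annexins and Anxa9 were named, and in each list the 3 genes with the smallest p and the one with the highest mean CPM; further genes were named after their values were seen. For likeness, genes with a mean of at least 10 CPM were searched, provisional symbols left out, with a prior count of 2. Protein sequences were not used here, and some list genes that are counted are not reported here by name.

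Alternatives were other scalings, other filters, non-robust dispersions, DESeq2 1.42.0, limma 3.58.1 voom, a replicate block, each library left out, and the longest transcript as length.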

Additional observations from a re-analysis of the deposited data

How the results depend on the processing

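The 6 annexin genes that rose kept their direction and their call under all 15 alternatives run. With library totals alone 9 annexins were called higher and 0 lower, Anxa4 was at 0.052, Anxa6 at 0.46, Anxa7 at 0.718 and Anxa10 at 0.715 on the log2 scale, and Chmp3 at 0.234. Over all genes it called 7522 higher and 2299 lower, so 76.6% of calls were higher, against 50.0% with TMM. With upper-quartile scaling Anxa6 was at 0.024. When each library was left out, the number of annexins called lower by edgeR ran from 0 to 1 (1 at an unadjusted p under 0.05 in each such fit, 1 by DESeq2 and by voom on all libraries, and 0 unadjusted with library totals alone), and log2 fold changes ran from -0.53 to -0.328 for Anxa4, -0.149 to 0.077 for Anxa6 and -0.019 to 0.352 for Anxa10. With the longest transcript as length, 7 of 10 genes kept their place in the order in Normal and 4 of 10 in Yap-activated tissue.

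No pairing by the replicate numbers of the titles was seen. Deviations from the group means of same-numbered libraries correlated at 0.04, 0.003 and 0.069, and those of differently numbered libraries at -0.111 to 0.066. With 3 libraries per group this cannot settle whether the libraries were paired. With the replicate block 4239 genes were higher and 4322 lower, 6 annexins were higher and 1 lower, and the Fpr2 and Chmp3 calls were lost (2.444 and -0.257 on the log2 scale). Depth limits Anxa9 and the formyl peptide receptor genes, with few reads per library.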
